A study of Mus musculus with 2 samples.

Results

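The proteasome genes of the array were chosen by symbol, as those starting with Psma, Psmb, Psmc, Psmd, Psme, Psmf or Psmg in the probe annotation, which gave 50 of 19936 named nuclear genes. The arrays measured RNA from gastrocnemius muscle of male C57BL/6 mice, 1 array for PGC-1β(i)skm-/- and 1 for control mice, each with RNA from 3 pooled mice. PGC-1β(i)skm-/- mice carried floxed alleles of Ppargc1b, the gene of the transcriptional coactivator PGC-1β, and an HSA-Cre-ERT2 transgene, in which skeletal actin regulatory elements drive a tamoxifen-dependent Cre recombinase in myofibres. Control mice were littermates with the floxed alleles and no transgene, although the sample label calls them wild-type. Mice of both genotypes were 7 weeks old when given tamoxifen, 1 mg daily over 5 days, and 8 weeks old when studied. The transgene was present only in mutant mice, so that its effect and that of the deletion cannot be told apart. Only myofibres delete the gene, and other cells of the muscle keep it.

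The proteasome degrades proteins that carry a ubiquitin chain. Its barrel-shaped core is built of outer rings of alpha subunits and inner rings of beta subunits, some of which cut peptide bonds. A regulatory particle caps the core. It has a base, with a ring of ATPases that unfold the substrate, and a lid that removes the ubiquitin chain. Under interferon, the catalytic beta subunits are replaced by those of the immunoproteasome, which cuts peptides for presentation on MHC class I. In skeletal muscle, the ubiquitin-proteasome system carries out much of the breakdown of myofibrillar proteins.

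The values are log2 signals of the RMA method, which equalizes the distribution of signals between arrays, so that a shift common to all genes is removed. A difference is the log2 signal of PGC-1β(i)skm-/- muscle minus that of control muscle, and the ratio is 2 raised to this difference. With 1 array per genotype, the spread between mice is unknown and differences could not be tested. Precision is limited by there being 2 arrays. A level of one gene is not set against that of another, since probe sets differ in their response.

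The deleted gene was lower on the mutant array, as Ppargc1b had a log2 signal of 7.06 in PGC-1β(i)skm-/- muscle and 7.87 in control muscle, although its probe set is not limited to the deleted exon. The 10 myofibre markers, mostly of fast fibres, had mean log2 signals of 12.79 or more. Of the markers of other cells, 10 of 10 of macrophages and 9 of 9 of connective tissue had a higher signal in PGC-1β(i)skm-/- muscle. Those of endothelium, with 5 of 7 higher, and of lymphocytes, with 5 of 9, were mixed. Among all named nuclear genes, 49.6% were higher. Whether these cells were equally represented was not tested. In such bulk samples, a change in the number of cells of a type and a change in RNA per cell cannot be told apart.

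The proteasome genes had nearly the same signal in PGC-1β(i)skm-/- and control muscle. None of the 50 genes had a ratio of 0.8 or less, the study's limit for a lower gene, against 0.652% of all named nuclear genes. None had a ratio of 1.2 or more, its limit for a higher gene, against 1.64% of all. These backgrounds are small, and counts of none among 50 genes lie near them. The median log2 difference of the 50 genes was -0.02, against -0.00055 over all 19936 genes and -0.02 over the 5186 genes with a mean log2 signal of 8 or more. The difference was above 0 for 20 genes and below 0 for 30. It was above 0 for 49.6% of all genes, and for 2150 of the 5186 genes with a mean log2 signal of 8 or more. Counts by sign in the groups below are to be read beside these shares.

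**Figure D1:**
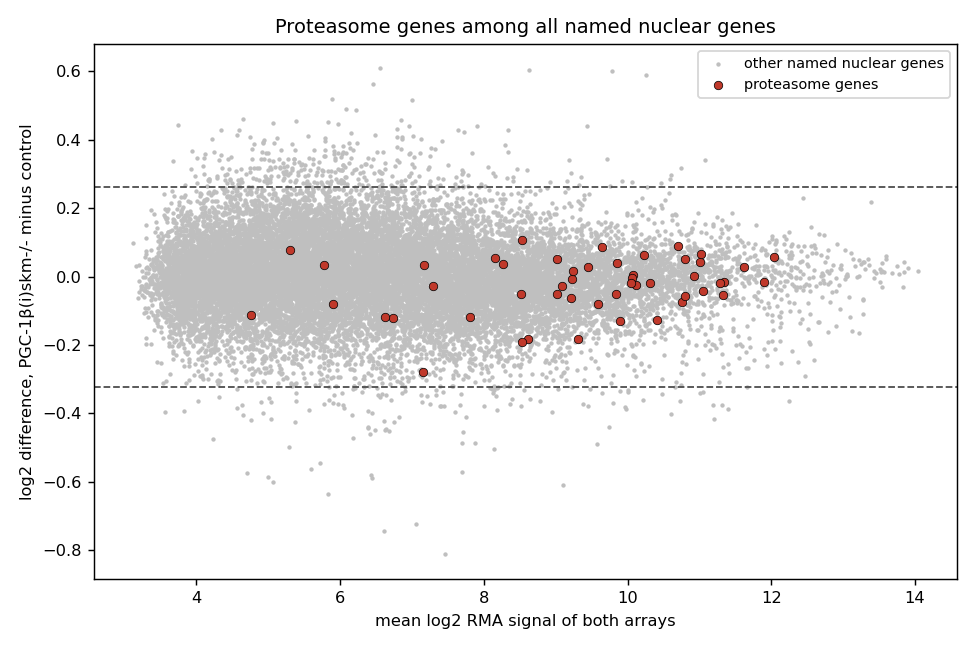
Points are named nuclear genes, placed by the mean of their log2 RMA signals (horizontal axis) and by the log2 difference of PGC-1β(i)skm-/- from control muscle (vertical axis). The 50 proteasome genes, in red, all lie between the broken lines that show ratios of 0.8 and 1.2, from -0.28 for Psmb10 to 0.11 for Psmf1.

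The constitutive subunits of the complete proteasome had small differences. Of the 31 genes of the alpha ring, the constitutive beta ring, the base and the lid, 25 differed by 5% or less between arrays and all 31 by 10% or less, as did 52.5% and 81.4% of all named nuclear genes. These shares cover genes of every signal, while the 31 genes had mean log2 signals of 8.52 or more. The 31 genes ranged from 8.66% lower to 6.38% higher in PGC-1β(i)skm-/- muscle. The largest absolute log2 difference among them was 0.13, a limit that all 31 meet by construction. Of all named genes 77.2%, and of those with a mean signal of 8 or more 83.6%, had a difference of this size or less. The standard deviation of the differences over the 31 genes was 0.06, against 0.10 over the genes of signal 8 or more.

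Among the 7 alpha ring genes, which form the gate through which substrates enter, the median log2 difference was -0.02 and 5 were below 0. Psma6 had a log2 signal of 10.72 in PGC-1β(i)skm-/- muscle and 10.80 in control muscle, a difference of -0.08. Psma5 followed with 8.50 in mutant and 8.55 in control muscle (-0.05), and Psma7 with 8.99 in mutant and 9.04 in control muscle (-0.05). The highest difference of this ring was that of Psma3, with 11.04 in mutant and 10.99 in control muscle (0.04), and its 3 probe sets lay between 0.043 and 0.0486. Psma2 was 0.398% lower and Psma4 0.361% higher in mutant muscle.

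The 7 constitutive beta ring genes had a median of -0.05, and 5 were below 0, among them Psmb3, whose other probe set was at 0.08. Psmb6, which carries the caspase-like site, had a log2 signal of 10.35 in PGC-1β(i)skm-/- muscle and 10.48 in control muscle, 8.46% lower. Psmb5, with the chymotrypsin-like site, was at 12.06 in mutant and 12.00 in control muscle, 4.04% higher. Psmb7, with the trypsin-like site, was at 10.76 in mutant and 10.82 in control muscle, 3.83% lower. The 3 genes with catalytic sites thus differed in sign among themselves. Of the genes without a catalytic site, Psmb1, Psmb3 and Psmb4 lay between -0.06 and -0.02 and Psmb2 at 0.05.

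**Figure D2:**
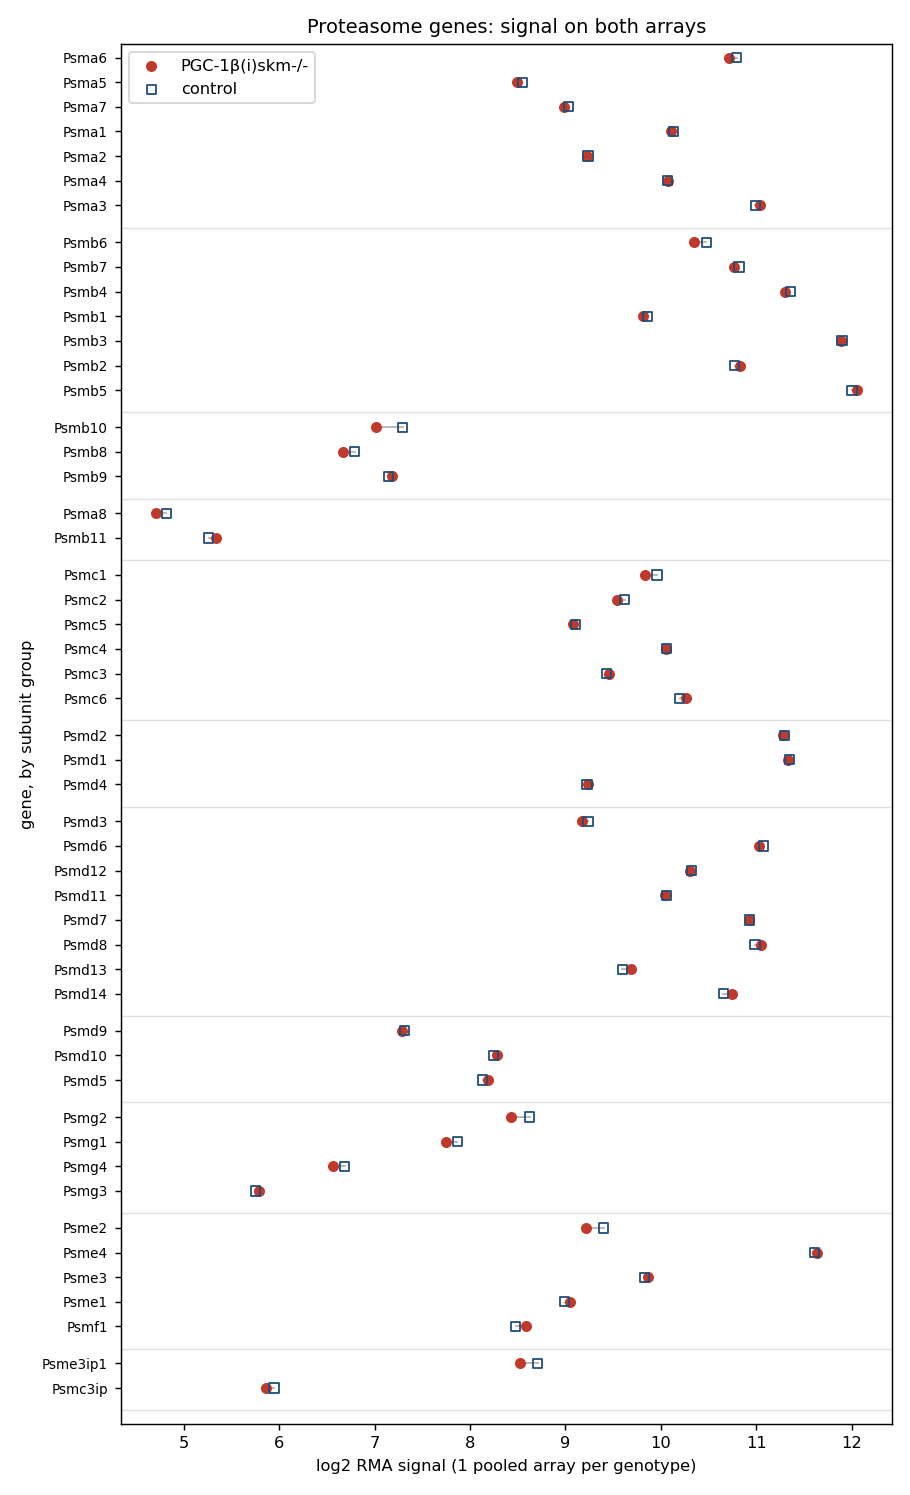
Each row is 1 proteasome gene, with its log2 RMA signal (horizontal axis) in PGC-1β(i)skm-/- muscle as a filled red circle and in control muscle as an open blue square, and grey lines divide the subunit groups, in the order alpha ring, beta ring, immunoproteasome, testis or thymus core, ATPases, other base genes, lid, base chaperones, core chaperones, activators with Psmf1, and genes that match by name only. The symbols lie close for most genes and are furthest apart for Psmb10, Psmg2, Psme3ip1 and Psme2, and signals of different rows are not comparable.

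The base held 9 genes with a median log2 difference of -0.02. The 6 ATPase genes were spread from -0.13 to 0.06, with 4 below 0. Psmc1 had a signal of 9.83 in PGC-1β(i)skm-/- muscle and 9.96 in control muscle, a difference of -0.13, and its other probe set had 9.41 in both and a difference of -0.00413. Psmc2 was at 9.54 in mutant and 9.62 in control muscle (-0.08), and Psmc6 at 10.26 in mutant and 10.20 in control muscle (0.06). Psmd1 and Psmd2, the scaffolds of the base, and Psmd4, a ubiquitin receptor, were within 0.02 of 0. Psmd1 had 11.33 in mutant and 11.35 in control muscle, Psmd2 11.28 in mutant and 11.30 in control muscle, and Psmd4 9.24 in mutant and 9.23 in control muscle. For Psmd2, 1 probe set had a difference of -0.02 and the other of 0.02.

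Of the 8 lid genes, 4 were above 0, and the median was -0.00775. Psmd14, the deubiquitinating enzyme of the lid, had a log2 signal of 10.75 in PGC-1β(i)skm-/- muscle and 10.66 in control muscle, 6.38% higher. Psmd13 was at 9.68 in mutant and 9.60 in control muscle, 6.26% higher, and Psmd8 at 11.05 in mutant and 10.99 in control muscle, 4.66% higher. The lowest lid gene was Psmd3, at 9.18 in mutant and 9.24 in control muscle, 4.17% lower. Psmd6, Psmd7, Psmd11 and Psmd12 lay between -0.04 and 0.003.

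Further complexes of the cytosol and nucleus had like values. The COP9 signalosome, which is related to the lid in sequence and removes Nedd8 from cullins, had a median of -0.0084 over 9 genes, from -0.05 to 0.08. The CCT chaperonin, which folds actin and tubulin, had a median of -0.01 over 8 genes, from -0.15 for Cct8 to 0.07 for Cct7.

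The 3 immunoproteasome genes differed in size and sign. Psmb10, which takes the place of Psmb7, had the largest difference of all proteasome genes, with a log2 signal of 7.02 in PGC-1β(i)skm-/- muscle and 7.29 in control muscle, 17.6% lower. Its ratio of 0.824 lies just outside the limit of 0.8, and it was at rank 275 of 19936 genes from the lowest difference. Psmb8, which takes the place of Psmb5, was at 6.67 in mutant and 6.79 in control muscle, 8.07% lower. Psmb9, which takes the place of Psmb6, was at 7.18 in mutant and 7.14 in control muscle, 2.37% higher. The median of the 3 genes was -0.12, against -0.04 for the 14 constitutive core genes.

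Set against its constitutive counterpart, the log2 difference of Psmb10 was lower than that of Psmb7 by 0.22 and that of Psmb8 lower than that of Psmb5 by 0.18, while that of Psmb9 was higher than that of Psmb6 by 0.16. Psmb10 was the 1 proteasome gene with a ratio of 1/1.2 or less, which 1.69% of all named genes reached. For scale, the 997 genes with several probe sets had a median gap of 0.08 between the lowest and highest difference of a gene and a 90th percentile of 0.27, above each of the 3 pair differences and near the size of that of Psmb10. For the 327 of these genes with a lowest mean signal of 8 or more, the values were 0.03 and 0.12, below each pair difference. The 3 immunoproteasome genes had mean signals of 6.73 to 7.16, and their constitutive counterparts were above 8. Each of the 3 immunoproteasome genes was measured by 1 probe set.

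Promoter windows of the RefSeq annotation of GRCm38.p6 were read for the proteasome genes, from 250 bases before to 50 after the annotated start, which need not be the start used in muscle. Of the 50 genes, 42 had a window, and some had several, which gave 46 windows. Those of the immunoproteasome genes, of Psmb5 and Psmb6, 2 of their constitutive counterparts, and of Psmg1, a core chaperone with a lower signal, are shown 5′ to 3′ in the direction of transcription. Psmb7 was not among the 42. Capitals mark matches, on either strand, to the motifs searched, which were TGACNNNGC (antioxidant response element, bound by the Nfe2l1 and Nfe2l2 proteins), TTCNNNGAA (interferon gamma-activated site), GAAANNGAA (interferon-stimulated response element), CCAAT (bound by NF-Y), AAGGTCA (estrogen-related receptors, partners of PGC-1), GCATGCGC (NRF-1) and CCGGAAG (ETS factors such as GABPA).
Psmb10 (chr8:105938343-105938642, minus strand): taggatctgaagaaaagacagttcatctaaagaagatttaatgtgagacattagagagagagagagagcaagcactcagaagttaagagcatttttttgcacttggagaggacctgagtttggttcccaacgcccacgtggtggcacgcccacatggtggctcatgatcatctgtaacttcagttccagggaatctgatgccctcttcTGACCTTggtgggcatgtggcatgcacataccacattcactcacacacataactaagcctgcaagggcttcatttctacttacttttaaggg
Psmb8 (chr17:34197945-34198244, plus strand): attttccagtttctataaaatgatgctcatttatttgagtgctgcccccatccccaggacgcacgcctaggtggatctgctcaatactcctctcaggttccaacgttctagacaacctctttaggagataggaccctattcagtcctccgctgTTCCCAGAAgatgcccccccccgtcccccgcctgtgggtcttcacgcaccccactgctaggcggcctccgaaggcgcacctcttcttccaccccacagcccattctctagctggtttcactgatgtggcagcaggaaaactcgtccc
Psmb9 (chr17:34187281-34187580, minus strand): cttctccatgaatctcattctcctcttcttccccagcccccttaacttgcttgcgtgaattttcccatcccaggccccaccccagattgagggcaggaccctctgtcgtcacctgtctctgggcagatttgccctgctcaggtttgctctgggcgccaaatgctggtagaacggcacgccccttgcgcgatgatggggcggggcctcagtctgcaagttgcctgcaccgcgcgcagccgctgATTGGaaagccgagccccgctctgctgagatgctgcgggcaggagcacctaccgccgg
Psmb5 (chr14:54617946-54618245, minus strand): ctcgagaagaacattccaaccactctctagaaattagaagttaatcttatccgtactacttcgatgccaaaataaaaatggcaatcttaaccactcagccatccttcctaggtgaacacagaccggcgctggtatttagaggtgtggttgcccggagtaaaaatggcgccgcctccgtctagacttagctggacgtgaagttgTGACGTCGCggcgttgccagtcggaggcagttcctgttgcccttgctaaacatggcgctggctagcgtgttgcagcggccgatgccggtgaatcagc
Psmb6 (chr11:70525107-70525406, plus strand): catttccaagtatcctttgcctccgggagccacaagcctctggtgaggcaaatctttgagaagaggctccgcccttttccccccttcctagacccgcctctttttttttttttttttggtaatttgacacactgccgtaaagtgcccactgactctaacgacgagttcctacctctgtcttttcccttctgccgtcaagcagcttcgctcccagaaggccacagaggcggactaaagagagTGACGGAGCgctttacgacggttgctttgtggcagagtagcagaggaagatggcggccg
Psmg1 (chr16:95990911-95991210, minus strand): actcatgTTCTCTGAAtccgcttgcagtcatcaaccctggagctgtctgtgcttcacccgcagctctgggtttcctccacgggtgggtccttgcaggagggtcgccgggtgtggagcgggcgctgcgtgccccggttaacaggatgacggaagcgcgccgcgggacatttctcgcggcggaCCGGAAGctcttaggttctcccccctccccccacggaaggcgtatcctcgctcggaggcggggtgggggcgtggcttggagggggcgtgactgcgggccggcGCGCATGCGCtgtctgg

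In these windows, Psmb10 held the estrogen-related receptor motif from base -42, in reverse orientation, Psmb8 the gamma-activated site from base -97 and Psmb9 a CCAAT box from base -8, in reverse orientation. Psmb5 and Psmb6 each held the antioxidant response motif, from bases -47 and -9, and Psmg1 an ETS motif from base -69, a gamma-activated site from base -243, and overlapping NRF-1 matches after the start. The ETS motif was in 17 of 46 windows of proteasome genes (37.0%), against 11.6% of 21263 windows of protein-coding genes and 8.86% of all 32851 windows. The antioxidant response motif was in 6 windows (13.0%), against 12.4% of all windows and 13.0% of protein-coding windows. The estrogen-related receptor motif was in 4 (8.70%), against 4.72% of all and 4.08% of protein-coding windows. The NRF-1 motif was in 3 (6.52%), against 2.71% of all and 3.52% of protein-coding windows. CCAAT was in 16 (34.8%), against 37.4% of all and 38.2% of protein-coding windows. The gamma-activated site was in 3 windows (6.52%), against 8.30% of all and 7.69% of protein-coding windows. The interferon-stimulated element was in 7 (15.2%), against 8.56% of all and 8.15% of protein-coding windows. The 16 genes with an ETS motif had a median log2 difference of -0.02 and those without it of -0.01. For the estrogen-related receptor motif (4 genes) these medians were -0.05 and -0.02, and for the gamma-activated site (3 genes) -0.12 and -0.02. They were -0.03 and -0.02 for the interferon-stimulated element and also for NRF-1. For the antioxidant response motif they were 0.0039 and -0.02, and for CCAAT -0.01 and -0.02. The genes are few, and these contrasts were not tested. A match is a description of the sequence and no site of binding.

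Genes that share interferon induction or a role in antigen presentation with the immunoproteasome had small differences of both signs. Psmb9 and Psmb8 lie beside Tap1 and Tap2 in the MHC region of chromosome 17, in the order Psmb9, Tap1, Psmb8, Tap2. Tap1 and Tap2, the transporter of peptides into the endoplasmic reticulum, had log2 differences of -0.15 and -0.08. Erap1, which trims peptides, was at -0.11 and Irf1, an interferon-inducible factor, at -0.10. B2m, the light chain of MHC class I, was at 0.02, as were Tapbp and Nlrc5. Over the 7 genes measured of the 10 listed, 4 were below 0, with a median of -0.08 and none past the limits of 0.8 and 1.2.

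Macrophages, which express the immunoproteasome, had markers with higher signals on the mutant array. The 10 macrophage markers ranged from 0.06 to 0.37, with a median of 0.26 and 5 at a ratio of 1.2 or more. Their log2 signals averaged 7.20 in PGC-1β(i)skm-/- muscle, from 5.76 to 9.26, and 6.97 in control muscle, from 5.66 to 9.01, with none at 0. Of 9 lymphocyte markers 5 were above 0, with a median of 0.07 and their signals averaged 4.93 in mutant and 4.90 in control muscle. Of the immunoproteasome genes, Psmb9 had the sign of the macrophage markers, and Psmb10 and Psmb8 had the other. The part of macrophages and lymphocytes in the signals of the immunoproteasome was not tested.

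**Figure D3:**
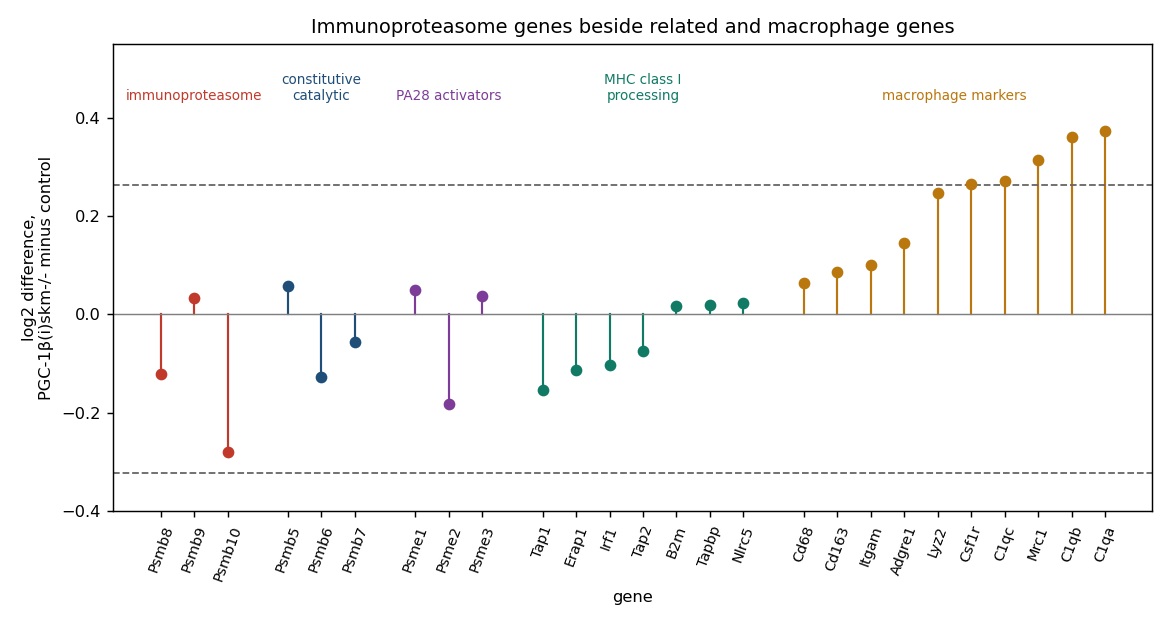
Stems show the log2 difference of PGC-1β(i)skm-/- from control muscle (vertical axis) for single genes (horizontal axis) of the immunoproteasome, of the constitutive catalytic subunits, of the PA28 activators, of MHC class I processing and of macrophage markers, with broken lines for ratios of 0.8 and 1.2. Psmb10 is the lowest point at -0.28, and the 10 macrophage markers lie between 0.06 and 0.37.

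Of 5 activators and regulators of the core, 4 had differences above 0. PA28 is a ring of Psme1 and Psme2 that opens the core and is induced by interferon together with the immunoproteasome. Psme2 had a log2 signal of 9.22 in PGC-1β(i)skm-/- muscle and 9.40 in control muscle, 11.8% lower, while its partner Psme1 was at 9.04 in mutant and 8.99 in control muscle, 3.56% higher. A further probe set, which names both Psme2 and Psme2b and was left out of the counts, was at 7.83 in mutant and 7.78 in control muscle, a difference of 0.05 opposite in sign to that of Psme2. Psme3, the nuclear form of PA28, was at 9.87 in mutant and 9.83 in control muscle (0.04), and Psme4, the activator PA200, at 11.64 in mutant and 11.61 in control muscle (0.03). Psmf1, encoding the regulator PI31, had the highest difference of all 50 genes, at 8.59 in mutant and 8.48 in control muscle, 7.78% higher.

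Of the 4 Psmg genes, chaperones that assemble the core, 3 had differences from -0.19 to -0.12, and those that assemble the base lay between -0.03 and 0.05. Psmg1 and Psmg2 form a dimer that gathers the alpha ring. Psmg2 had a log2 signal of 8.43 in PGC-1β(i)skm-/- muscle and 8.63 in control muscle, 12.4% lower, and Psmg1 7.75 in mutant and 7.87 in control muscle, 7.89% lower. Psmg4 was at 6.57 in mutant and 6.69 in control muscle, 7.83% lower, and its dimer partner Psmg3 at 5.79 in mutant and 5.75 in control muscle, 2.36% higher. The median of these 4 genes was -0.12. Of the base chaperones, Psmd9 was at 7.28 in mutant and 7.31 in control muscle (-0.03), Psmd10 (gankyrin) at 8.28 in mutant and 8.25 in control muscle (0.04) and Psmd5 at 8.19 in mutant and 8.13 in control muscle (0.05), with a median of 0.04. The groups overlap through Psmg3, whose mean log2 signal of 5.77 was below the array medians. Of the 4 Psmg genes, 1 had a ratio of 1/1.1 or less, which 10.1% of all named genes reached. Pomp, a core chaperone with another symbol, was at 0.02, within the range of the base chaperones.

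**Figure D4:**
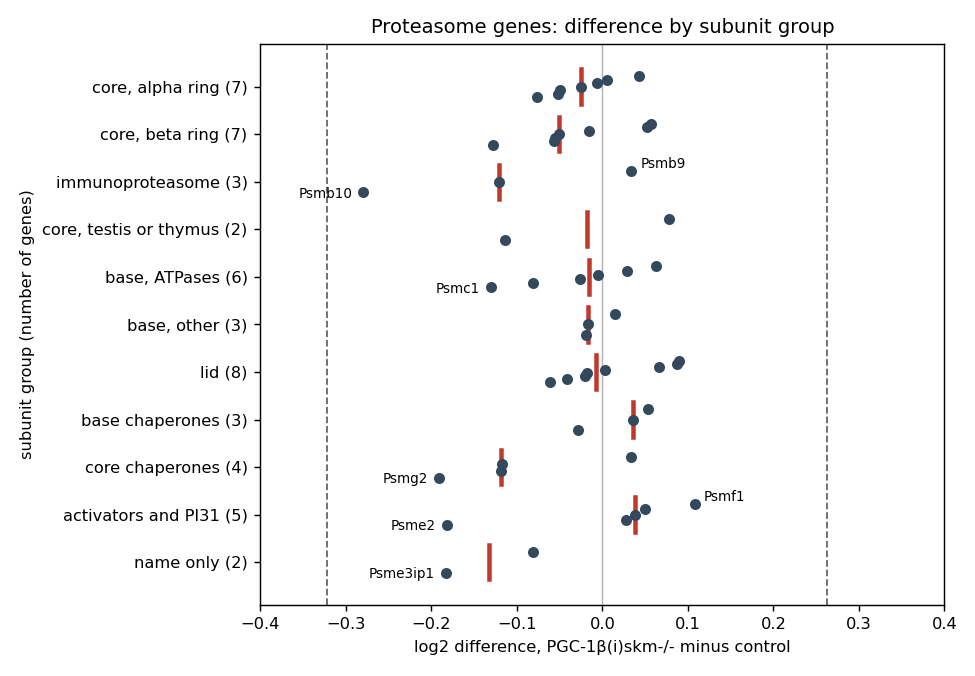
Proteasome genes are drawn as points at the log2 difference of PGC-1β(i)skm-/- from control muscle (horizontal axis), by subunit group with its number of genes (vertical axis), with a red bar at each median and broken lines for ratios of 0.8 and 1.2. The medians stand at -0.12 for the immunoproteasome and the core chaperones, and between -0.05 and 0.04 for the rings, the base, the lid, the base chaperones and the activators. The lowest median, -0.13, is that of the 2 genes that match by name only.

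At a limit of 1.1-fold, 4 genes were lower and none was higher. The lower ones were Psmb10, Psmg2, Psme3ip1 and Psme2, or 8% of the 50 genes, where 10.1% of all named genes were as low and 10.5% as high. The next genes were Psmc1 at -0.13 and Psmb6 at -0.13, just above that limit. None of the 4 lower genes encodes a subunit of the constitutive proteasome, while Psmc1 and Psmb6 do. As the count lies near the share of all genes, no contrast between subunit groups is read from this limit. Psme3ip1, encoding a protein that binds PA28 of the nucleus, matched by name without being a subunit, and had 8.53 in PGC-1β(i)skm-/- muscle and 8.71 in control muscle, 11.9% lower. Psmc3ip, a factor of meiotic recombination that also matched by name only, was at 5.87 in mutant and 5.95 in control muscle (-0.08).

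The core subunits known from other tissues had signals below the median of each array. Psma8, of the testis, had a log2 signal of 4.71 in PGC-1β(i)skm-/- muscle and 4.82 in control muscle, and Psmb11, of the thymic cortex, 5.34 in mutant and 5.26 in control muscle. The medians over all probe sets were 6.02 on the mutant and 6.00 on the control array. Detection above background was not measured, and their differences of -0.11 and 0.08 are not read as expression of these genes.

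Partners of the proteasome with other symbols also had small differences. Sem1, a lid subunit, had a log2 difference of -0.01, and Pomp of 0.02. The deubiquitinating enzymes Usp14 and Uchl5, which bind the regulatory particle, were at 0.10 and 0.03, the ubiquitin ligase Ube3c at -0.09, the adaptor Ecpas at -0.05 and the thioredoxin-like Txnl1 at 0.13. The median of these 7 genes was 0.02, with none past the limits of 0.8 and 1.2. Among 12 genes of ubiquitin shuttles, the Vcp segregase and regulators, 8 were above 0, and again none was past a limit. Nfe2l1, the factor that raises transcription of proteasome genes when the proteasome is inhibited, had a log2 signal of 11.30 in PGC-1β(i)skm-/- muscle and 11.35 in control muscle (-0.05). Nfe2l2, a related factor of the oxidative stress response, was at 10.70 in mutant and 10.46 in control muscle, a ratio of 1.18 just under the limit of 1.2. Vcp was at -0.03, its cofactors Ufd1 and Nploc4 at 0.01 and 0.09, and Zfand5 at 0.09. Of the muscle ubiquitin ligases, Trim63 was at 0.15, Traf6 and Fbxo30 at -0.10 and Fbxo32 at -0.0018, and 6 of 8 were below 0.

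Several probe sets of a gene give separate readings of it on the same arrays. Among the 5 proteasome genes with several probe sets, the gap between the lowest and highest difference was 0.0056 for Psma3, 0.01 for Psma5, 0.04 for Psmd2, 0.10 for Psmb3 and 0.13 for Psmc1. The probe sets of Psmb3 were at -0.02 and 0.08, and those of Psmd2 also differed in sign. Additional probe sets of one gene may also measure processed copies, of which the RefSeq annotation lists several for this family, and the files do not separate them.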

How the data were processed

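Total RNA of gastrocnemius muscle, pooled from 3 mice per genotype, was labelled by the authors from 150 ng and hybridized to Affymetrix Mouse Gene 1.0 ST arrays. Intensities were extracted with GeneChip Command Console 3.2, and the authors deposited log2 signals, computed by RMA in Expression Console 1.1 (background correction, quantile normalization, median polish). RMA compresses differences of dim probe sets. Their genome build was not given in the sources used here.

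Probe sets were named through the platform annotation, with symbols updated by Entrez ID through RefSeq (GRCm38.p6). Of 35556 probe sets, 21789 had 1 symbol, 1621 had several and were left out, and 12146 stay unnamed. Each gene was read from its probe set of highest mean, without a filter on signal, and mitochondrially encoded genes were left out. Limits of 0.8 and 1.2 are those of the paper's methods. No statistical test was possible with 1 array per genotype. The members and lists of genes were chosen with earlier results of these data known. Values are given for all immunoproteasome, activator and chaperone genes and for at least the 3 genes of largest difference in other groups of subunits, and for examples from the other lists. Listed genes with no probe set of their own under these rules, among them ubiquitin genes, were not analysed here. Alternatives were other choices of probe set, filters on signal, centring, a loess curve with a span of 0.3 and other limits. The calculation was run on simulated data with fixed shifts and no noise, which checks the code and not the precision of the differences. Python 3.11.15, pandas 2.3.3, numpy 2.4.6, statsmodels 0.14.6 and matplotlib 3.10.9 were used.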

Additional observations from a re-analysis of the deposited data

How the results depend on the processing

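The median log2 difference of the 50 proteasome genes ranged from -0.02 to -0.00912 over the choices of probe set, filters on signal, centring and the loess curve, and the number of genes above 0 from 20 to 22 where all 50 were kept. The filters on signal left 46 and 44 of the genes, with 18 above 0 in each, against 46.9% and 43.5% of all genes. Under these settings no gene had a ratio of 0.8 or less or of 1.2 or more, and medians of subunit groups moved by less than 0.08, the median gap between probe sets of 1 gene. This tolerance is larger than most of the medians, so that a sign can change within it. The median of base genes other than ATPases was -0.02 in the main setting and 0.01 with the probe set of largest difference. Only 5 of the 50 genes had several probe sets, so the choice of probe set could change only those. Other limits changed the count of lower genes, which was 1 at a ratio of 1/1.2 or less and 4 at 1.1-fold. Psmb3 had a difference of 0.08 and Psmc1 of -0.00413 with the probe set of lowest mean signal, and Psmb3 had 0.08 also with that of largest difference. The lowest-signal setting was added after seeing the data, as was leaving out Psmc3ip and Psme3ip1, with which the median was -0.02. No paired analysis was possible because each genotype has 1 array. Signals near the lower end of the scale limit Psma8, Psmb11, Psmc3ip and Psmg3, and the absence of replicate arrays limits all differences.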
